A study of Homo sapiens with 6 samples.

Results

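The UNCX locus was read as every region of a reduced representation bisulfite sequencing (RRBS) table that overlaps UNCX or lies within 40 kb of it, which gave 25 of the 35130 regions of the table. UNCX (UNCX4.1, gene ID 340260) spans chr7:1232872-1237326 on the plus strand of GRCh38 (hg38), 4455 bases. Among RefSeq genes wholly before or after UNCX, none comes within the 40 kb. Genes overlapping UNCX were not searched for. The nearest neighbours are the non-coding ZFAND2A-DT, 66914 bases before the gene, and MICALL2, 197033 bases after it. DNA came from M07e, an acute megakaryoblastic leukemia line with the CBFA2T3-GLIS2 fusion that the series is about, with 3 libraries of control (WT) cells and 3 of cells in which DNMT3B was knocked out by CRISPR, all grown in serum-containing medium with GM-CSF. The labels do not say whether the libraries of a group came from separate cultures, or whether the knockout is 1 clone, so any spread between libraries may be technical.

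UNCX encodes a paired-like homeodomain transcription factor. In the vertebrate embryo it is expressed in the posterior part of each somite, where it is needed for the parts of the vertebrae that form there, and it is also expressed in kidney and brain precursors. Developmental homeobox genes of this kind often sit in long CpG islands that Polycomb proteins bind in cells that do not use them. DNMT3B is an enzyme that places methyl groups on previously unmethylated CpGs, and DNMT1 copies methylation after replication.

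All levels, differences, p-values and q-values given for regions are those of the authors' deposited table, which holds 1 mean methylation level per group and region. Levels of single libraries and read counts were not analysed here: depth is unknown and no value has a replicate error. In 98.4% of the regions where it could be checked, the Mann-Whitney p matches points counted per library and site, and in these it does not measure the spread between libraries; which points entered the Kolmogorov-Smirnov test is not given. One column of means is named M07e_WT, the control. The other is named M07e_3883, which no label uses. The study has no genotype besides these, so it was taken as the knockout, and every direction below rests on that reading. Regions with an authors' q below 0.01 were called where the means also differed by at least 25 percentage points. UNCX was chosen because earlier results of this table showed called regions there, so its counts and differences are a description, with no test.

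The promoter of UNCX is shown because 1 of the 25 regions lies wholly inside it, and because its letters show what a site of the table is. The 250 bases before the annotated start (chr7:1232622-1232871, plus strand, RefSeq GRCh38.p14) follow, with the CpGs of the measured region in capitals.
UNCX promoter: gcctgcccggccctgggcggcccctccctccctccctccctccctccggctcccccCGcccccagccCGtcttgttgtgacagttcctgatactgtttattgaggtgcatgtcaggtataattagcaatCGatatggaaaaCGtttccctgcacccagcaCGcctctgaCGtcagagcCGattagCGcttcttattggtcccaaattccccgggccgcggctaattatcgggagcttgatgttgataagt

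The measured region runs from position -194 to -64 from the start (chr7:1232678-1232808) and holds 8 CpG dinucleotides, hence 16 CpG cytosines on both strands, of which the table counts 11 as sites. Its first position is the cytosine of the CpG at -194 on the plus strand, and its last is the minus-strand cytosine of the CpG at -65. The same reading held for all 2499 regions of the table that lie inside a RefSeq promoter window: both ends fell on a CpG cytosine. For this, positions were counted from 0, with the first cytosine 1 base after the deposited start and the last at the deposited stop. In 1895 of these regions the deposited number of sites was above the number of CpG dinucleotides, and in none was it above the cytosines of both strands. A "site" below is therefore a cytosine on 1 strand, so that a CpG can count as 2, and printed positions are the first and last cytosine, counted from 1.

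RRBS reads fragments cut by MspI at CCGG. The window of 300 bases, 250 before and 50 after the start, has CCGG at 5 places, and the measured region lies between those at -205 and -41, which are 164 bases apart. The window holds 20 CpGs, and 41.2% of the 35116 RefSeq promoter windows hold at least as many; 63.1% of windows have a CCGG and 15.7% have 5 or more. TAATTA, a core that many homeodomain proteins bind, occurs at 2 places in the UNCX window (at -132 inside the measured region and at -29 outside it) and in 4.84% of all windows, with 0.367% having at least 2. CG, CCGG and TAATTA read the same on both strands. CCGG contains CG, and neither overlaps TAATTA. These matches describe the letters only, and binding was not measured.

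**Figure D1:**
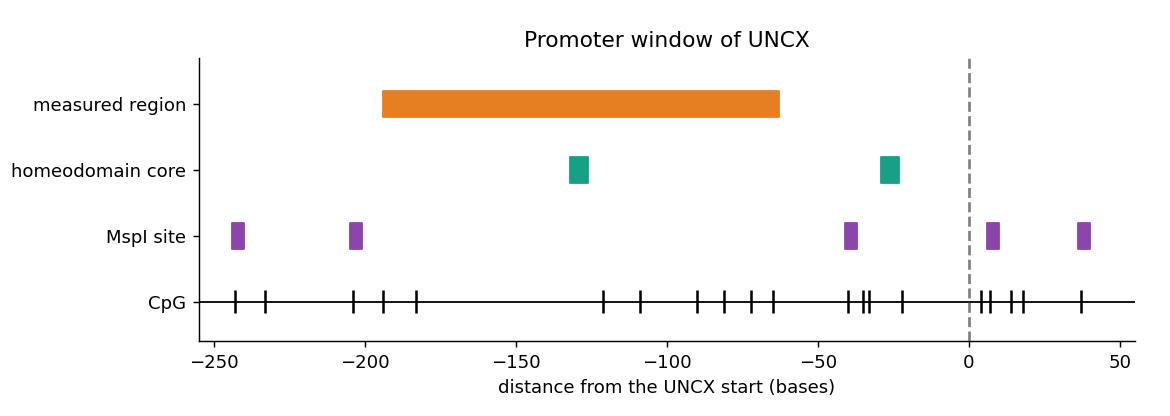
Features of the UNCX promoter window by distance from the annotated start in bases (x axis): CpG dinucleotides as ticks, CCGG sites of MspI, TAATTA cores and the measured region as bars. The measured region covers 8 of the 20 CpGs and ends 64 bases before the start, so the CpGs nearest to the start lie outside it.

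In the authors' deposited table the UNCX locus differed in both directions: the called region in the gene was lower in knockout cells, the one before it was higher, and of the 4 after it 3 were higher and 1 lower. Of the 25 regions, 14 were higher and 11 lower in knockout cells, and 6 were called, 4 higher and 2 lower. Neither lower call held when the Kolmogorov-Smirnov p was adjusted by the Benjamini-Hochberg method over all regions, at a difference of at least 40 points or at q below 0.001. Of all regions of the table, 6.74% were called in either direction, 4.57% higher and 2.17% lower. Since the called regions are why the locus was chosen, nothing is read from the 6 of 25 against that share. The median difference was 8.52 points at the locus and 17.4 points over the table, and 14 of 25 regions (56.0%) were higher, against 68.4%. Weighted by sites, the locus had 25.3% in control cells and 36.8% in knockout cells, a difference of 11.5 points, against 13.5 points over the table. Of the table's regions, 23.2% had 1 group at exactly 0% and the other at 25% to just above 33.333%. At UNCX 2 of the 25 did, both lower in knockout cells. Without these 2, the locus median was 20.9 points and its site-weighted difference 14.0 points. Values of the table without such regions were not computed. The medians, shares higher and weighted differences of locus and table are therefore not read against each other.

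**Figure D2:**
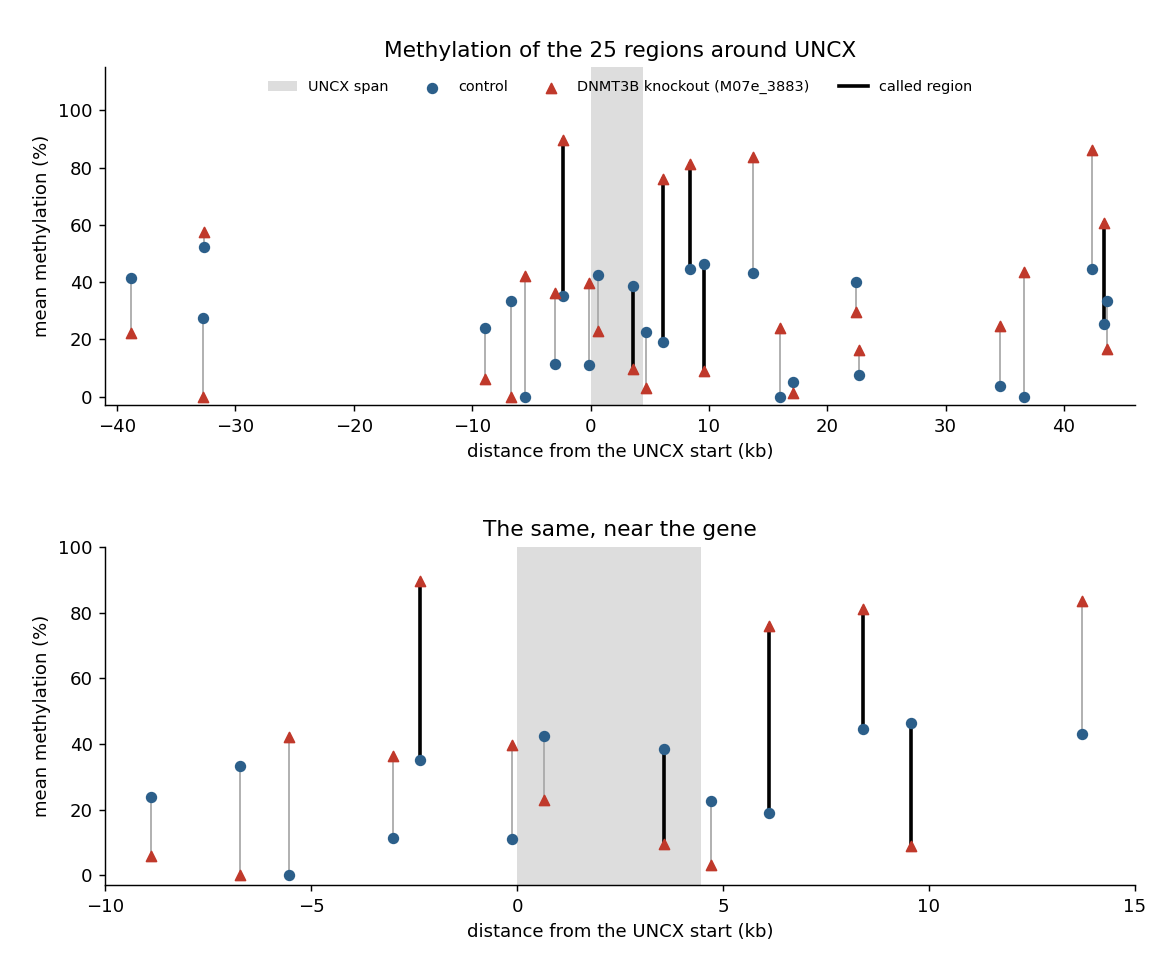
Mean methylation in percent (y axis) of each of the 25 regions by distance from the UNCX start in kb (x axis), for all regions (top) and near the gene (bottom). Circles are control means, triangles knockout means, black lines called regions and the grey block the gene; there are no error bars because the table has 1 mean per group. The 2 regions in the gene are lower in knockout cells, and the regions on either side of it include called gains to 89.7%, 75.9% and 81.2%, a called loss to 8.89% and 3 regions within 10 kb that are lower without being called.

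The 2 regions that overlap the gene both had lower means in knockout cells. The annotation used here gives no exons, so these regions are placed in the gene without saying exon or intron. The region near the start, 623 to 689 bases after it (chr7:1233495-1233561, 11 sites), was at 42.6% in control cells and 22.9% in knockout cells and was not called (q = 0.0709). The region towards the end of the gene, 3551 to 3574 bases after the start (chr7:1236423-1236446, 12 sites), went from 38.5% to 9.64% and was called (q = 0.00282), a call lost after that adjustment (0.0140). Just past the gene, 239 bases from its end, 5 sites (chr7:1237565-1237579) were at 22.5% and 3.11%. That difference of -19.4 points had a q of 0.00152 but did not reach 25 points. The 3 consecutive regions thus had control means between 22.5% and 42.6%, each with a lower mean in knockout cells.

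Before the start the 4 nearest regions all had higher means in knockout cells. The promoter region shown above (11 sites) was at 10.9% in control cells and 39.7% in knockout cells, 28.7 points apart, and was not called (q = 0.0352). The next one, 2328 bases before the gene (chr7:1230498-1230544, 8 sites), went from 35.2% to 89.7% and was called (q = 0.00172). Its knockout mean was the highest of the locus. The region 2955 bases before the gene (chr7:1229777-1229917, 15 sites) was at 11.4% and 36.4% (q = 0.152), and the one 5520 bases before it (chr7:1227310-1227352, 7 sites) at exactly 0% and 42.05% (q = 1). Further out the order turned. At 6668 bases before the gene, 5 sites (chr7:1226076-1226204) were at 33.333% in control cells and exactly 0% in knockout cells (q = 1), and at 8878 bases another 5 (chr7:1223979-1223994) were at 23.9% and 5.996% (q = 0.00317, under the difference threshold).

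Within 10 kb after the gene, beyond the short region at its end, 3 called regions followed each other and the last of them went the other way. At 1603 bases from the end (chr7:1238929-1239023, 5 sites) the mean went from 19.1% in control cells to 75.9% in knockout cells, the largest difference of the locus at 56.8 points (q = 0.00314). At 3934 bases (chr7:1241260-1241299, 9 sites) it went from 44.4% to 81.2%, with the lowest q of the locus (0.000705). At 5089 bases (chr7:1242415-1242446, 9 sites) the mean went from 46.4% to 8.89%, with the q nearest below the threshold (0.00893). The last 2 of these started from similar control means, 44.4% and 46.4%, lie 1115 bases apart and ended at 81.2% and 8.89%. The following region, 9243 bases from the gene (chr7:1246569-1246585, 5 sites), was at 43.1% and 83.6% without being called (q = 0.0239).

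Of the 9 regions more than 10 kb after the gene, only the one with the most sites was called. It holds 23 sites 38754 bases from the gene (chr7:1276080-1276391) and went from 25.3% in control cells to 60.6% in knockout cells (q = 0.00160). The region 38 bases further on (chr7:1276430-1276565, 6 sites) was at 33.333% and 16.7% (q = 1), and the one 855 bases before the called region (chr7:1275212-1275224, 5 sites) at 44.5% and 86.3% (q = 0.0236). The means of these neighbours went both ways, but the only one lower in knockout cells, over 6 sites, had a Mann-Whitney p of 0.393. Nearer to the gene, 11 sites (chr7:1248754-1249038) were at exactly 0% and 23.9% (q = 1), and 6 sites (chr7:1249958-1249974) were low in both groups, at 5.10% and 1.19% (q = 0.552). A pair of adjoining regions followed, at 39.97% and 29.5% over 5 sites (chr7:1255285-1255315, q = 0.953) and at 7.70% and 16.2% over 10 sites (chr7:1255316-1255794, q = 1). The remaining regions had 7 sites each, at 3.81% and 24.7% (chr7:1267391-1267472, q = 1) and at exactly 0% and 43.5% (chr7:1269491-1269558, q = 1).

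None of the 3 regions more than 10 kb before the gene was called. The farthest (chr7:1194005-1194072, 5 sites) was at 41.3% in control cells and 22.3% in knockout cells (q = 0.491). A pair 14 bases apart differed in both groups: 7 sites (chr7:1200046-1200160) were at 27.6% in control cells and exactly 0% in knockout cells (q = 1), while 10 sites (chr7:1200175-1200222) were at 52.1% and 57.5% (q = 1). The last value, 52.1%, was the highest control mean of the locus.

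Grouped by distance, the site-weighted difference was -24.5 points over the 23 sites in the gene (40.4% in control cells and 15.97% in knockout cells). It was 22.8 points over 51 sites within 10 kb before the gene (16.9% and 39.7%) and 11.6 points over 33 sites within 10 kb after it (37.6% and 49.2%). Beyond 10 kb it was -10.7 points over 22 sites before the gene and 20.6 points over 80 sites after it. Regions with 1 group at exactly 0% enter every part but the gene and the 10 kb after it. Beyond 10 kb before the gene, such a region of 7 sites had the largest difference, -27.6 points, against -19.0 and 5.39 points in the others. Levels of single libraries were not used, and these differences between parts of the locus were not tested.

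The levels lay further apart in knockout cells, with quartiles of 9.64% and 57.5% against 10.9% and 41.3% in control cells. Over the whole table the quartiles were 6.67% and 38.7% in knockout cells and 0% and 29.96% in control cells. Control means at the locus ran from 0% to 52.1% with a median of 27.6%, and knockout means from 0% to 89.7% with a median of 24.7%. Of the 25 regions, 16 had a control mean between 20% and 60% (64.0%, against 27.0% of the table), 9 were below 20% (36.0%, against 65.8%) and none at or above 60% (7.16% of the table). In the knockout 10 were between 20% and 60% (40%, against 54.9%), 9 below 20% (36.0%, against 34.6%) and 6 at or above 60% (24.0%, against 10.5% of the table). All 6 of the last group had control means from 19.1% to 44.5%. Between their quartiles, differences ran from -19.0 to 36.8 points at the locus and from -3.71 to 31.9 points over the table. The locus was chosen for its called regions, and all 4 called gains are among the 6 regions at or above 60% in the knockout. None of the 10781 regions of the table with exactly 1 group at 0% was called. A control mean of exactly 0% was found for 3 of the 25 regions and for 9175 of the 35130 of the table. Nothing about UNCX is therefore read from these levels and spreads against those of the table.

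**Figure D3:**
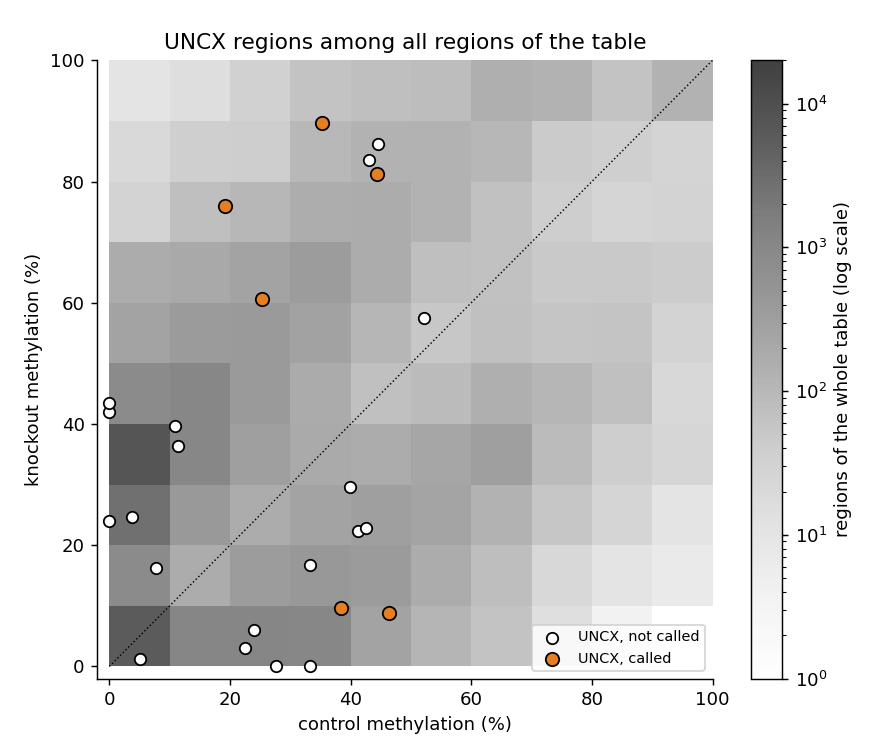
Control mean (x axis, percent) against knockout mean (y axis, percent) of the 25 UNCX regions, over a grid that shades each 10-point square by the number of regions of the whole table on a log scale. UNCX regions lie on both sides of the dotted line of equal means, and no control mean is above 52.1%.

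The 2 thresholds cut through the locus at different regions. Of the 25 regions 13 differed by at least 25 points, which is the share of the whole table (52.0% of each). A q below 0.01 was found for 8 (32.0%, against 9.06% of the table), and 6 met both. Since q is part of the call for which the locus was chosen, nothing is read from these 8 against that share. The called region with the smallest difference was the one in the gene, at 28.8 points, and the region not called with the difference nearest below 25 was the one 2955 bases before the gene, at 24.9 points. By q the nearest on either side were 0.00893 (called) and 0.0236 (not called) among regions past the difference threshold. When the authors' Kolmogorov-Smirnov p was adjusted over all 35130 regions by the Benjamini-Hochberg method, a rule that called 4.12% of all regions (2.79% higher and 1.32% lower), 3 of the 6 regions stayed called, all higher in knockout cells. They were those 2328 bases before the gene (0.00925), 3934 bases after it (0.00529) and 38754 bases after it (0.00888). Both lower regions lost the call, at 0.0140 in the gene and 0.0300 at 5089 bases after it, as did the gain 1603 bases after it (0.0147).

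**Figure D4:**
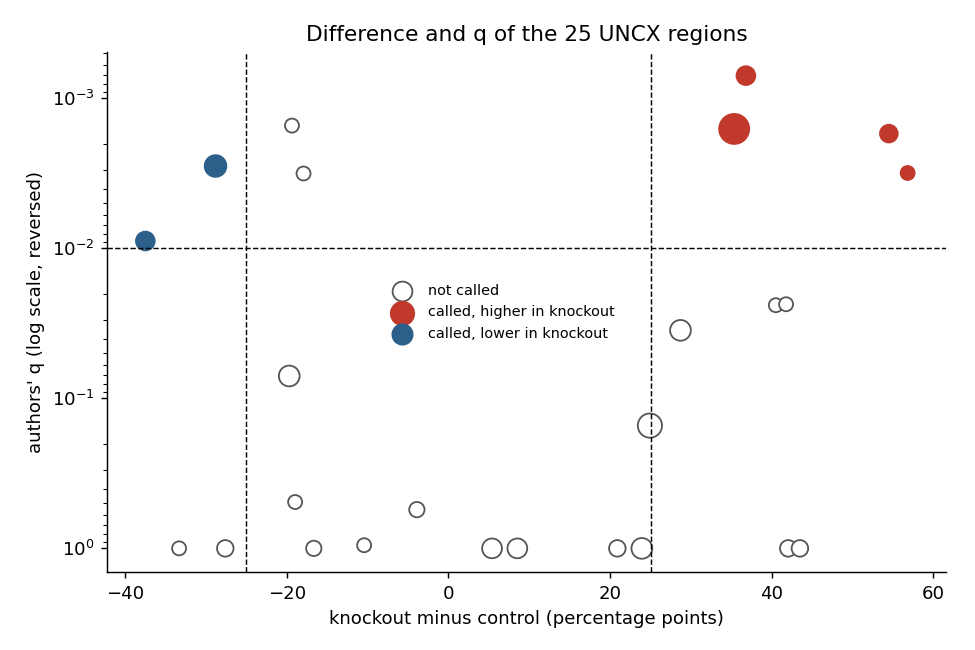
Difference in percentage points, knockout minus control (x axis), against the authors' q on a reversed log axis (y axis) for the 25 regions, with circle area in proportion to the number of sites and dashed lines at 25 points and q = 0.01. The 4 called gains sit at upper right and the 2 called losses at upper left, and 7 regions past 25 points lie below the q line.

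A mean of exactly 0% in 1 group set 5 regions apart, 3 in control cells and 2 in knockout cells. Their differences, from 23.9 to 43.5 points in size, reach above those of 4 of the 6 called regions, yet each had a Kolmogorov-Smirnov p of 1 and a q of 1. In all, 10781 regions of the table had exactly 1 group at 0 and none of them was called, although 9354 differed by at least 25 points. The deposited Mann-Whitney p of the 5 regions ranged from 0.00796 to 0.120. As none of these 5 regions was called, leaving them out could not change the counts of called regions at the locus, 4 higher and 2 lower.

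A width of 100 kb would take in 41 regions, and the width of 40 kb took in 25. The region farthest inside it was 39104 bases from the gene, at 33.333% in control cells and 16.7% in knockout cells, and the first outside it was 41942 bases away (chr7:1279268-1279389), at 41.0% and 61.6% (q = 0.338). On the other side the farthest inside was 38800 bases away, at 41.3% and 22.3%, and the first outside 73487 bases away (chr7:1159364-1159385), at 4.93% and 17.9% (q = 0.0441).

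Other genes of somite patterning, and the relatives of UNCX among the paired-like homeobox genes, had called regions at shares near that of the whole table (6.74% called, 4.57% higher and 2.17% lower, with a median difference of 17.4 points). Nothing particular to them is read from the counts, and the counts of genes below have no share over all genes beside them. These lists were drawn up with earlier results of the table known. Of 24 genes that pattern somites and the sclerotome, 20 had a region in the gene or within 40 kb and 9 a called one. Their 146 regions had a median difference of 21.5 points, and 13 were called (8.90%), 8 higher and 5 lower. The genes with the most were DLL1, a Notch ligand (3 higher), and FOXC2, a forkhead factor of paraxial mesoderm (1 higher and 2 lower), followed by PAX9, a factor of the sclerotome, where 1 region went from 94.0% in control cells to 28.9% in knockout cells (chr14:36662083-36662106, q = 0.000134). Of 34 other paired-like genes, 31 had a region and 13 a called one. Their 187 regions had a median difference of 19.0 points, and 16 were called (8.56%), 10 higher and 6 lower. RAX, a factor of eye development, had 2, 1 higher and 1 lower, of which the larger was a loss from 86.2% to 48.3% (chr18:59272405-59272417, q = 0.00337).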

How the data were processed

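The table used here is the authors' deposited comparison of 3 knockout with 3 control M07e RRBS libraries. Per the submitters' processing notes, FastQC, Trimmomatic, Bismark, HISAT2 and methylKit were used with build hg38, without versions or roles; no source used here names the program that made the regions. Per the file headers, the authors deposited for each region a percent methylation for each group, a difference in percentage points (unit score), a count of CpG sites, a q-value and p-values of a Mann-Whitney and a 2-dimensional Kolmogorov-Smirnov test. How q was derived is not given. Depth is unknown.

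Regions were taken within 40 kb of the RefSeq span of UNCX (GRCh38.p14). Positions were shifted after a check against RefSeq promoter sequences. Calls used q below 0.01 and at least 25 points. Benjamini-Hochberg adjustment ran over all regions and was tested on simulated data. Called regions, regions in the gene or its promoter and those of 20 or more sites were to be named in full; here all 25 are. List genes were named by most called regions (up to 3 a list), then by size of difference; some genes the rule would name are not reported here. Python 3.11.15, pandas 2.3.3, numpy 2.4.6 and matplotlib 3.10.9 were used. The members and lists were chosen with earlier results of these data known.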

Additional observations from a re-analysis of the deposited data

How the results depend on the processing

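The counts of called regions at the UNCX locus (4 higher, 2 lower) depended on both thresholds. At a difference of at least 10 points 4 were lower, and at 40 points 2 were higher and 0 lower. At q below 0.05 there were 7 higher, and at q below 0.001 there were 1 higher and 0 lower. Benjamini-Hochberg adjustment of the Kolmogorov-Smirnov p left 3 higher and 0 lower. Among the 8 regions of at least 10 sites there were 1 higher and 1 lower, with a median difference of 16.2 points and a site-weighted one of 13.0. The median, 8.52 points over all 25 regions, was 24.9 within 10 kb, 20.9 without the 2 regions at exactly 0 in 1 group and at 27.6% or 33.333% in the other, and 6.95 without the 5 regions with a group at 0 (an alternative added once the data had been seen). The site-weighted difference, 11.5 points, was 9.04 within 20 kb, 9.20 within 10 kb and 14.0 without those 2 regions. At least 5 sites left all values the same, since no region has fewer, and at 100 kb all 4 moved by less than 1 point or not at all. No result reversed. Leaving out single libraries was not run, since the table gives group means only. No paired analysis was possible because the table has no levels or counts of single libraries. Depth could not be weighed.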

Other observations

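The points behind the authors' Mann-Whitney p could be read from regions with 1 group at exactly 0, a check chosen after seeing the data. For each such region the p was computed for 3 points per site in each group, 1 for each library, with a whole number of points above 0 in the other group, mean ranks for ties and no tie correction. Within a relative 0.001 this gave the deposited p in 10612 of 10781 regions (98.4%). At UNCX all 5 matched. The region 6668 bases before the gene, at 33.333% in control cells and 0% in knockout cells, matched with 15 points a group and 5 above 0 (deposited value 0.120), as many as its 5 sites. The region at 27.6% and 0%, 32712 bases before the gene, matched with 7 of 21 points above 0 for 7 sites (deposited value 0.0645), and the one at 0% and 23.9%, 11428 bases after the gene, with 11 of 33 for 11 sites (deposited value 0.0199). The regions that went from 0% to 42.05% and to 43.5% each matched with 10 of 21 (deposited value 0.00796). Of the 10781 regions with 1 group at exactly 0, 8488 (78.7%) had as many points above 0 as sites. The mean of the group above 0 was at most 33.333% in all 8488. With only 1 point in 3 above 0, a mean of the points cannot be higher. The match gives the number of points and does not show in which library they lie. In the matching regions the authors' Mann-Whitney p thus fits points counted per library and site, which are not independent replicates.

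In the authors' deposited table q followed the Kolmogorov-Smirnov p closely. Among regions with a Kolmogorov-Smirnov p below 0.01, q was 3.35 to 3.67 times that p, with a median of 3.50.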
